A study of Rattus norvegicus with 4 samples.

Results

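Genes that give a neuron its transmitter, 9 in all, were followed through the H3K27me3 profile of the sham-operated rat sciatic nerve. Gad1 and Gad2 encode the enzymes that make GABA from glutamate, and Slc32a1 encodes the transporter (VGAT) that loads GABA and glycine into synaptic vesicles. Slc6a5 encodes the plasma membrane transporter GlyT2 of glycine neurons. Slc17a6, Slc17a7 and Slc17a8 encode the vesicular glutamate transporters VGLUT2, VGLUT1 and VGLUT3. Chat encodes the enzyme that makes acetylcholine, and Slc10a4 encodes a vesicle protein found in cholinergic and monoamine neurons. The 9 genes were chosen by name with their peak widths and scores in this list already known, so those values describe them and were not tested. Rows that named a member made up 201 of the 129550 peaks, and the 9 genes were among 10647 genes that the list names.

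Trimethylation of histone H3 at lysine 27 is placed by the Polycomb complex PRC2 and marks genes held silent in a cell lineage. Genes that define another cell type often carry it as a broad domain over the start of the gene and its flanks. A sciatic nerve holds Schwann cells, connective tissue, vessels and immune cells, while the cell bodies and nuclei of the motor and sensory neurons lie in the spinal cord and ganglia.

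The tissue came from male Sprague Dawley rats at postnatal day 42. On the sham side the skin was opened and the nerve spared, while the sciatic nerve of the other limb was cut, and tissue was taken at day 1. No nerve therefore came from an unoperated animal. The series has 2 H3K27me3 libraries and 2 input libraries of this nerve, prepared from chromatin cut with micrococcal nuclease. The authors deposited a single combined peak list on the rat assembly rn5, with 1 score per peak, so no value has a replicate error and neither the use of the input nor the number of animals per library is given in the sources used here. In bulk tissue, fewer cells with the mark and less mark per cell cannot be told apart.

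The scores have no stated scale. All 97601 of them under 10 are whole multiples of a step of 0.20626, within a tolerance of 0.005. The 95% counting intervals below assume that a step is 1 sequenced tag and hold counting error alone, and library depth is unknown. As a check of the tissue, all 8 neuronal marker genes examined (among them Snap25, Syt1 and Stmn2) had a peak at the promoter, with a median score of 187.2. Of 10 Schwann cell markers 4 did, from Sox10, the lineage factor (150 bp, 4.13), to Mbp (2634 bp, 77.4) and Erbb3 (3445 bp, 117.2). Of 4 fibroblast markers 3 did, with a median of 4.95 but 561.3 over 10453 bp at Pdgfra. Among 3 endothelial markers only Kdr did (1957 bp, 65.6), and none of 3 leukocyte markers did. Over all genes the share with such a peak was 38.4% of those the list names and 17.2% of protein-coding genes. The Schwann cell and fibroblast markers were not below these shares. The endothelial share (33.3%) lay between them, and the leukocyte share was below both. Some genes of cells in the nerve thus also carried peaks.

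All 9 transmitter genes had a peak that reached within 1000 bp of the transcription start site (TSS), called a promoter peak here. The same was true of 38.4% of the genes named in the list and of 17.2% of protein-coding genes. For 7 of the 9 the highest-scoring promoter peak was at least 5000 bp wide, against 5.29% of the genes named. Since the genes were chosen with these values known, nothing further is read from either count. In every member the highest-scoring of all its peaks was also a promoter peak.

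Width and score varied between and within the transmitter classes. The glycine gene's peak measured 18628 bp and scored 948.0. The 3 GABA genes had widths of 11981 to 15022 bp, median 14527 bp, and scores of 733.5 to 960.8, median 753.9. The 3 glutamate genes ranged from 1760 to 12050 bp, median 8521 bp, and from 58.2 to 543.5 in score, median 484.9. The 2 cholinergic genes lay far apart, at 3314 and 15798 bp and at 115.7 and 964.7. As single peaks, all 3 GABA genes and the glycine gene scored above all 3 glutamate genes. The counting intervals of the GABA and glycine genes did not overlap those of any glutamate gene. These intervals hold counting error alone and the genes were chosen with their scores known, so no class difference was tested. The cholinergic pair fell on both sides, Slc10a4 at the top of the 9 and Chat below all but Slc17a8. Among the 9 genes, the counting intervals of Slc10a4, Slc32a1 and Slc6a5 overlapped, as did those of Gad1 and Gad2. All other pairs were apart, and how often pairs of other genes are apart was not measured.

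**Figure D1:**
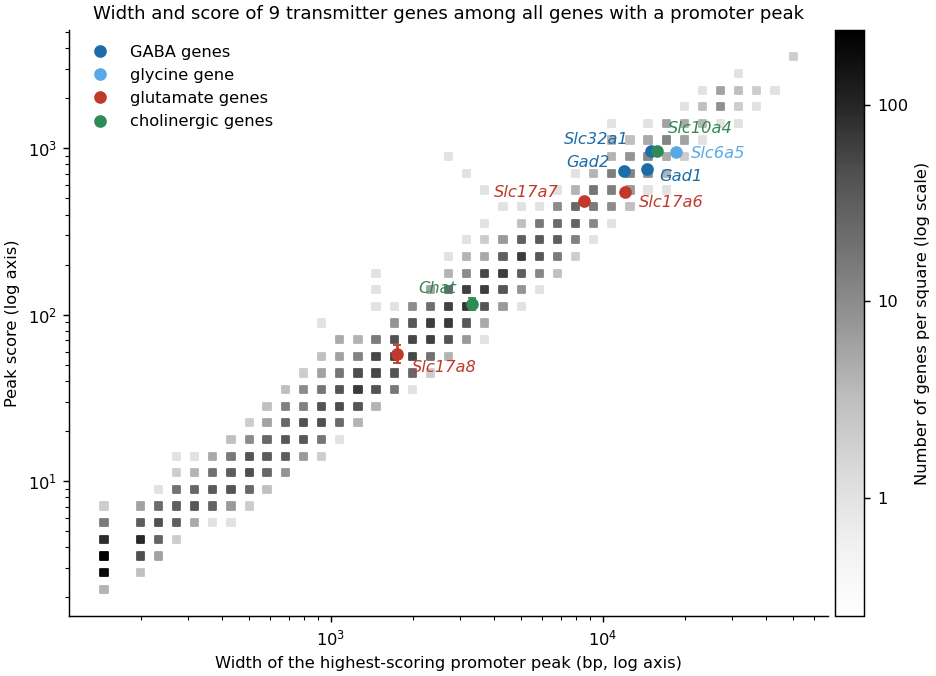
Width in bp (x, log axis) against score (y, log axis) of the highest-scoring promoter peak. Coloured points are the 9 transmitter genes with 95% counting intervals, and grey squares count all genes with a promoter peak. Slc17a8 (1760 bp, 58.2) and Chat (3314 bp, 115.7) lie in the dense middle, and the other 7 genes lie at the upper end.

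The DNA before the TSS, which the choice of genes did not use, also varied. RefSeq gives a start for all 9 genes in the newer assembly GRCr8, and the 250 bases before it were read for each. These starts were not matched to those of the authors' annotation. The strand of Slc32a1 differs between the assemblies, minus in rn5 as the peak list gives it and plus in GRCr8. Of these windows, 4 are shown, the most CpG-rich of the GABA genes, the glutamate gene with the widest peak, and the unequal cholinergic pair, with each CpG dinucleotide in capitals. They lie at chr3:167686995-167687244 on the plus strand (Slc32a1), chr1:110348197-110348446 on the plus strand (Slc17a6), chr14:35557885-35558134 on the minus strand (Slc10a4) and chr16:7723417-7723666 on the minus strand (Chat), all in GRCr8, and are written 5′ to 3′.
Slc32a1: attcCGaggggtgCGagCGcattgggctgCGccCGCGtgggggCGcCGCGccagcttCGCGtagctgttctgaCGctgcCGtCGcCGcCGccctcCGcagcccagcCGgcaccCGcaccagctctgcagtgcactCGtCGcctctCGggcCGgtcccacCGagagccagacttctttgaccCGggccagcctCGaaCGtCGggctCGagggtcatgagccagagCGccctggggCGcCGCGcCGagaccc
Slc17a6: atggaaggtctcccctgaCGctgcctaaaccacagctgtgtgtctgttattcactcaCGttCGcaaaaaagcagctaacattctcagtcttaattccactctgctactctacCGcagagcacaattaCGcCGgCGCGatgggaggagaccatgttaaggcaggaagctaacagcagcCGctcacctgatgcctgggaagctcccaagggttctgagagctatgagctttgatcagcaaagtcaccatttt
Slc10a4: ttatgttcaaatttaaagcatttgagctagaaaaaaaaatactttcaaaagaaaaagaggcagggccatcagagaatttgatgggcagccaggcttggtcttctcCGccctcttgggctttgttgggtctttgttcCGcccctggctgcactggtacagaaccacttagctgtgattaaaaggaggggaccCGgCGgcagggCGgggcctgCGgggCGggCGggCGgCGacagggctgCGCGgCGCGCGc
Chat: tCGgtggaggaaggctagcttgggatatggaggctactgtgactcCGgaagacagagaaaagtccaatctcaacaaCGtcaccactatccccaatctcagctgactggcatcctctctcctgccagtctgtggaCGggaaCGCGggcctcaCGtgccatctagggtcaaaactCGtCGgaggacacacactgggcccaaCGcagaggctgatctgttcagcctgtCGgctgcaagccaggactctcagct

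Slc32a1 had 34 CpG in this window, and only 3.91% of 19005 protein-coding genes had at least as many. Gad1 had 23 and Gad2 22, above the median of 9 over all genes and of 13 over the genes with a promoter peak. Slc10a4 had 15, Chat 11, Slc17a7 10, Slc17a6 9 and both Slc17a8 and Slc6a5 8. The ratio of observed to expected CpG was 1.04 at Gad2, 1.01 at Slc32a1, 0.83 at Gad1 and 0.78 at Slc10a4. It was between 0.45 and 0.56 in the other 5, near the median of 0.52. The GABA genes therefore had the 3 highest counts, while Slc6a5, with the widest peak, shared the lowest count with Slc17a8, with the narrowest. The RefSeq start used for Gad1, Slc6a5, Slc17a7 and Slc17a8 is not the outermost of the gene, so other starts were not covered.

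**Figure D2:**
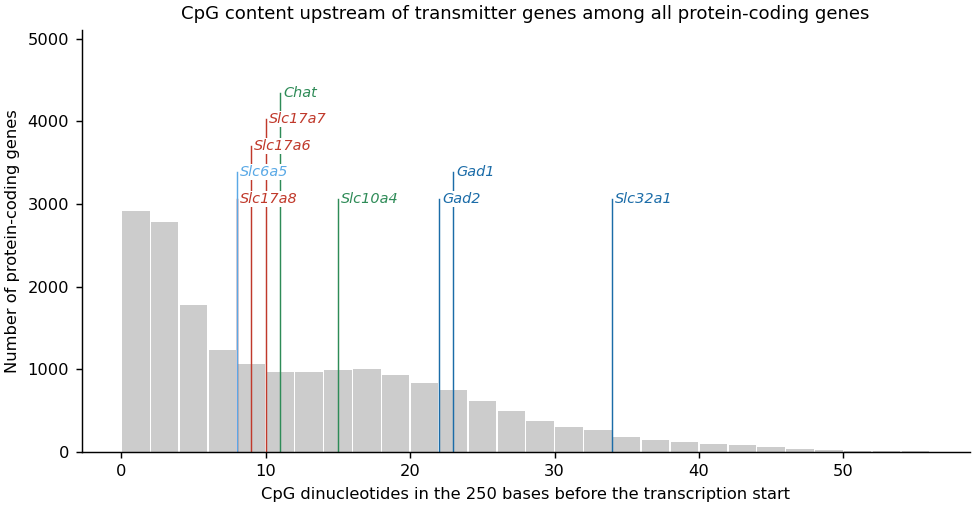
Number of CpG dinucleotides in the 250 bases before the RefSeq start (x) for 19005 protein-coding genes (grey bars, number of genes on the y axis), with a labelled line for each transmitter gene. Slc32a1 stands at 34, Gad1 and Gad2 at 23 and 22, and the other 6 between 8 and 15.

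The factor REST silences many neuronal genes in other cells through a 2-part element, RE1. The letters CAGCACC and GGACAGC from its 2 parts, searched on both strands, did not stand in the window of any of the 9 genes, and 5.63% and 5.56% of all windows held them. The longer TTCAGCACC, which contains the first, stood in 0.342% of all windows and in none of the 9. The TATA box letters TATAAA stood in that of Gad1 alone, against 12.3% of all windows. The E-box letters CAGCTG stood in those of Slc17a6 and Chat, against 11.9%. These are matches of letters in 250 bases. With so few of all windows holding the RE1 letters, their absence from 9 windows is not informative. Other sequence of these genes was not searched, and silencing by REST was not tested.

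The peak of Slc32a1 covered both flanks of its TSS. It ran from 160501038 to 160516060 on chromosome 3 (rn5), 11333 bp upstream and 3689 bp downstream of the TSS, and its centre was annotated as intergenic. The score of 960.8 (counting interval 933.4 to 988.8) ranked 130 among the highest peaks of the 10647 genes. After a gap of 387 bp a further peak of 3018 bp followed at the end of the gene, with a score of 219.7 and the densest mark of all member peaks of 1000 bp or more, 72.8 score units per kb. The list assigned 37 peaks to Slc32a1. Of these, 27 lay over 20000 bp from the TSS and summed to a score of 448.8, with the 2 highest at 95.1 each.

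Gad1 and Gad2, on different chromosomes, had peaks of nearly equal score. At Gad1 the peak spanned 63473203 to 63487730 on chromosome 3, 6760 bp upstream and 7767 bp downstream of the TSS, centred in intron 1. Its score was 753.9 (729.6 to 778.7). At Gad2 it spanned 90849139 to 90861120 on chromosome 17, 2560 bp upstream and 9421 bp downstream, centred in intron 4, with a score of 733.5 (709.6 to 758.0). The Gad1 peak was 1.21 times as wide as that of Gad2 and less dense, at 51.9 against 61.2 score units per kb. A further peak of 3107 bp and 96.1 lay 513 bp upstream of the Gad2 peak. Gad1 had no comparable neighbour, its second peak scoring 31.1.

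The widest peak of the 9 was that of Slc6a5. It ran from 106323813 to 106342441 on chromosome 1, 10169 bp upstream and 8459 bp downstream of the TSS, and was centred in the authors' promoter-TSS class. Its width ranked 65 among the 10647 genes and its score of 948.0 (920.8 to 975.8) ranked 134. Only 6 peaks were assigned to the gene, and this one held 91.2% of their summed score. The density was 50.9 score units per kb, and its score, whose counting interval overlapped that of Slc32a1, was spread over a wider peak.

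Among the vesicular glutamate transporters, Slc17a6 and Slc17a7 had wide peaks that lay mostly downstream of the TSS, and Slc17a8 had a narrow one. VGLUT1 and VGLUT2 serve largely separate sets of glutamate neurons, and VGLUT3 is found in scattered neurons that mostly use another transmitter as well. At Slc17a6 the peak began 244 bp upstream of the TSS and ran 11806 bp into the gene (108040267 to 108052317 on chromosome 1, 12050 bp, score 543.5, 522.9 to 564.7). At Slc17a7 the main peak began 193 bp downstream of the TSS and ended 8714 bp downstream (102226412 to 102234933 on chromosome 1, 8521 bp, 484.9, 465.5 to 504.9). A separate upstream peak of 1282 bp and 72.0 stopped 237 bp before it, and the TSS lay in the space between them. Slc17a8 had only 1760 bp (30370198 to 30371958 on chromosome 7) with a score of 58.2 (51.6 to 65.4), and an upstream peak of 1744 bp and 48.5. The score of Slc17a6 was 9.34 times and that of Slc17a7 8.33 times that of Slc17a8, which ranked 3480 of 10647.

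The 2 cholinergic genes were also far apart. The Slc10a4 peak ran from 37569816 to 37585614 on chromosome 14, 5050 bp upstream and 10748 bp downstream of the TSS, centred in intron 2, with a score of 964.7 (937.2 to 992.7). It was the highest score of the 9, 98.0% of all score assigned to the gene, and it also contained the TSS of the next gene downstream, Zar1, an oocyte gene, 6347 bp from that of Slc10a4. The peak is therefore not shown to belong to Slc10a4 alone. At Chat the peak ran from 10651101 to 10654415 on chromosome 16 with a score of 115.7 (106.3 to 125.7), 2102 bp upstream and 1212 bp downstream of the TSS. Slc10a4 scored 8.34 times as high over 4.77 times the width.

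Slc18a3, which encodes the vesicular acetylcholine transporter, lies inside the first intron of Chat, and the list divided their shared domain between the 2 names. A peak of 3683 bp and 124.4 assigned to Slc18a3 lay 255 bp from the Chat peak. Its centre was 3309 bp downstream of the Chat TSS and 2707 bp downstream of the Slc18a3 TSS. The Slc18a3 TSS therefore lay inside the Chat peak, and neither peak is shown to belong to 1 of these genes alone. Joined over gaps of up to 1000 bp, 5 peaks of Chat and Slc18a3 formed a domain of 10600 bp with a summed score of 317.2, which was still lower than the single peak of each GABA gene. Merging in the same way joined the Slc17a7 domain to peaks of the neighbouring gene Pth2 as 22315 bp and 970.9. That was above Gad1 (842.6), Gad2 (842.0) and Slc6a5 (966.3) merged likewise, so the separation of single peaks did not hold there. At Slc32a1 merging joined peaks assigned to Actr5, as 30510 bp and 1504.6. It also left Slc17a8 at 4017 bp and 106.7, the lowest of the 9.

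**Figure D3:**
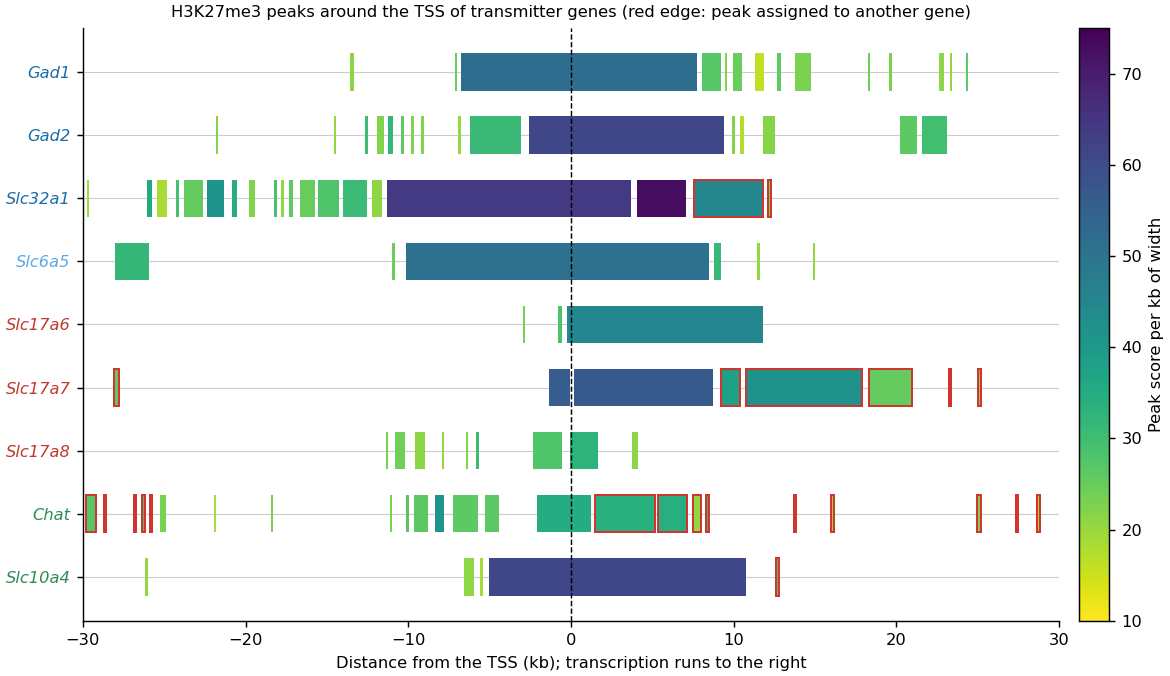
Peaks within 30 kb of the TSS of each gene, with distance in kb on the x axis and transcription to the right. Boxes are peaks, darker where the score per kb is higher, and a red edge marks a peak assigned to another gene. The Slc17a6 peak begins beside the TSS and runs 11806 bp downstream, whereas that of Slc32a1 reaches 11333 bp upstream.

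The mark around each TSS was then measured without regard to the gene a peak was assigned to. Of the 10 kb centred on the TSS, peaks covered the whole at Gad1, Slc6a5 and Slc10a4, 96.1% at Slc32a1 and 94.9% at Gad2. Coverage was 74.2% at Chat, 60.9% at Slc17a7, 56.3% at Slc17a6 and 38.6% at Slc17a8. At least 50% was covered in 8 of the 9, against 12.3% of the 9196 genes whose TSS the list gives. The median over those genes was 4.63%.

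The sides of the TSS differed most at Slc17a6 and Slc17a7. Of the 10 kb upstream, peaks covered 6.3% at Slc17a6 and 12.8% at Slc17a7, while the 10 kb downstream were covered in full at Slc17a6 and by 93.3% at Slc17a7. At Slc32a1 and Slc6a5 the upstream 10 kb were covered in full and the downstream 10 kb by 91.8% and 89.2%. Gad1 (69.1% upstream, 91.0% downstream), Gad2 (62.0% and 95.5%), Slc10a4 (58.6% and in full) and Chat (58.7% and 73.6%) had the mark on both sides, with more of it downstream. Slc17a8 alone among the glutamate genes had more upstream (29.4%) than downstream (20.5%).

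**Figure D4:**
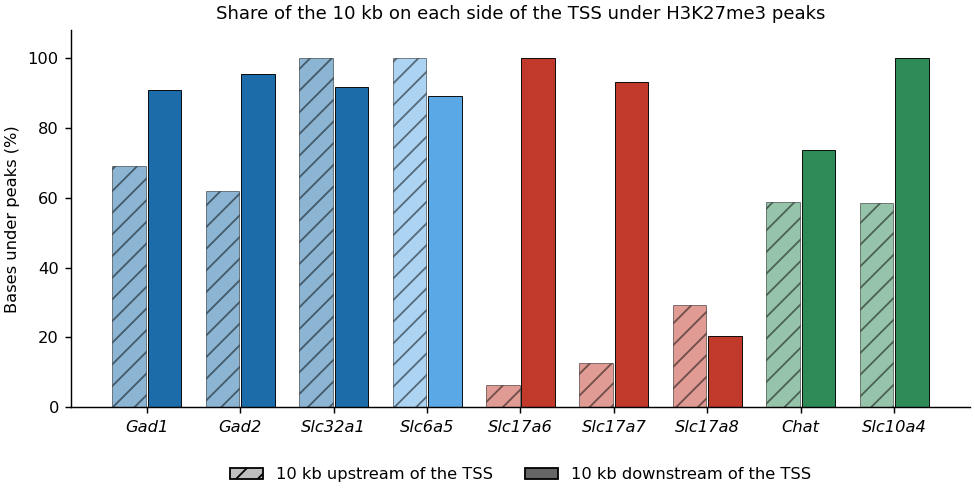
Percent of the 10 kb upstream (hatched) and downstream (solid) of the TSS that lies under any peak, for each gene, coloured by class (blue GABA, light blue glycine, red glutamate, green cholinergic). Slc17a6 and Slc17a7 stand at 6.3% and 12.8% upstream and at 93.3% or more downstream.

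The density of the mark varied less than its extent. Over the 9 highest-scoring peaks it ran from 33.1 score units per kb at Slc17a8 and 34.9 at Chat to 61.1 at Slc10a4, 61.2 at Gad2 and 64.0 at Slc32a1. Slc17a6 had 45.1 and Slc17a7 56.9. For the 940 genes whose highest peak was at least 5000 bp wide, the median was 47.7, and the 10th and 90th percentiles were 34.4 and 70.7. The other member peaks of at least 1000 bp numbered 23 and had a median of 27.8 and a range of 18.1 to 72.8. Across all peaks of the list, width and score rose together (Spearman rho 0.918, across peaks of 1 pooled profile).

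Other genes of transmitter handling were read from a wider list, together with relatives of the members listed as non-neuronal, a label that was not checked here. The list of 57 genes in 9 roles was drawn up with earlier results of these data known. Of the 57, 27 had a promoter peak (47.4%, against 17.2% of protein-coding genes), with a median width of 1214 bp and a median score of 36.1. Over all genes with a promoter peak these medians were 1335 bp and 40.6. Without the 14 non-neuronal relatives, 26 of 43 had one (60.5%), with medians of 1319 bp and 38.55. The shares in each role below are to be read against the same 17.2% of protein-coding genes and 38.4% of genes named. Only Slc1a2 (8990 bp) and Slc6a3 (6180 bp) had one of at least 5000 bp, and the highest score, 373.1 at Slc1a2, was below that of 7 of the 9. A further 13 of the 57 are named by no peak, and whether the annotation used held them is unknown.

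Among the other cholinergic genes, Slc18a3 had the peak of 124.4 described above and Ache, the acetylcholine-degrading enzyme, a promoter peak of 1424 bp and a higher-scoring one, 93.2, centred at -58400 bp (negative values are upstream of the TSS). Bche is not named. Slc5a7, the choline transporter of cholinergic terminals, was named after its values were seen: it had a single peak, of 446 bp and 7.22. The 5 cholinergic genes with a promoter peak thus spanned scores from 7.22 to 964.7.

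Monoamine genes followed no single level. Of 7 synthesis genes 6 had a promoter peak, with a median score of 8.89. Pnmt, which makes adrenaline, had the highest of these at 50.5, and Tph2, the serotonin enzyme of brain neurons, had 5.98 at the promoter and 133.9 in a peak centred 19639 bp downstream. No peak names Dbh. Of 6 genes of vesicular transport, which include the general vesicle proteins of the Sv2 family, 4 had a promoter peak, with a median score of 107.6. Sv2c had 200.3 and the monoamine transporter Slc18a1 126.9, while Sv2a and Slc17a9 had none. Of the reuptake transporters, those of dopamine (Slc6a3, 299.1) and noradrenaline (Slc6a2, 79.0) had a promoter peak and that of serotonin, Slc6a4, had none.

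Reuptake of the amino acid transmitters is shared between neurons and glia. All 5 glutamate transporters had a promoter peak, with a median score of 112.0, led by the glial transporter Slc1a2 (373.1, 356.1 to 390.7) and the neuronal Slc1a1 (126.2). Of the 5 GABA and glycine transporters 3 did, with a median of 8.04. Slc6a12 had none. The glial glycine transporter Slc6a9 had 5.57 at the promoter and 35.7 in a peak at -48687 bp. The glycine transporter of neurons, Slc6a5, thus scored 948.0 at the promoter and its glial relative 5.57.

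Of 10 genes of glutamate and GABA metabolism, 3 had a promoter peak, a share between those 2 backgrounds. The highest belonged to Slc38a1, a glutamine transporter (189.8). Glul, the glutamine synthetase of glia, had none, and the nearest peak assigned to it was centred 153437 bp away. Of the 14 relatives of the members listed as non-neuronal, among them phosphate and bile acid transporters of the Slc17 and Slc10 families, 7 are named. The single promoter peak was that of Slc17a1, named after its value was seen, of 150 bp and 2.89. Slc17a2 and Slc17a3 had none, and the highest peaks of the group lay far from the TSS, at Slc10a2 (51.6, 283269 bp) and Slc17a5 (33.0, -17440 bp). No peak names the monoamine oxidase genes Maoa and Maob.

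**Figure D5:**
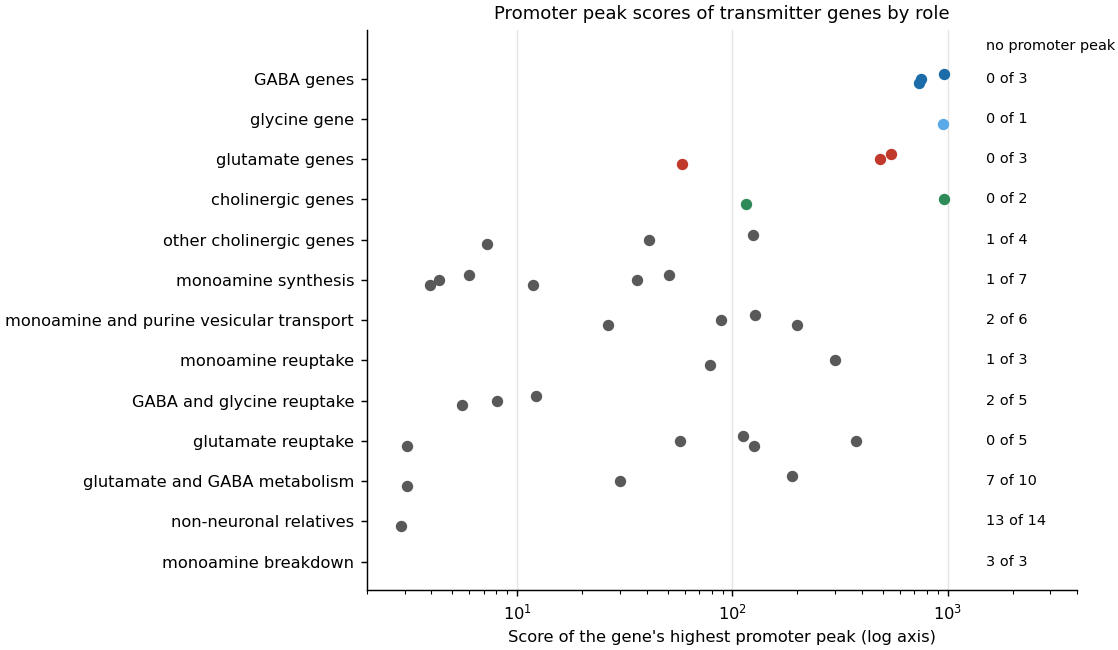
Score of each gene's highest promoter peak (x, log axis) by role, 1 point per gene, with the 9 transmitter genes in colour and other transmitter genes in grey; the numbers at the right count genes without a promoter peak. No grey point reaches the scores of 484.9 to 964.7 of 7 of the coloured genes.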

How the data were processed

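The submitters' processing notes name CASAVA 1.8.2, Bowtie and HOMER. Per the file headers, peaks of the combined H3K27me3 sham libraries were annotated with HOMER against rn5. Each peak has 1 score, deposited without a stated scale, with widths and distances to the nearest TSS in bp. Settings for calling peaks, the use of input and the way replicates were combined are not stated in those notes. The members and gene lists were chosen with earlier results of these data known, and no test was made.

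A gene was represented by the highest-scoring of the peaks that name it. A promoter peak had a centre no farther from its TSS than 1000 bp plus the width divided by 2. The TSS and its strand were recovered from peak centres and signed distances. Functions were tested on simulated data. Named genes were the 9 members and, in each role of the wider list, the 2 with the highest peak score and up to 2 without a promoter peak. For each member, the gene with the nearest width and score was also taken. Names and GRCr8 sequences came from RefSeq tables. Python 3.11.15, pandas 2.3.3 and scipy 1.17.1 were used. Alternatives changed the promoter reach, the score minimum, the merging of peaks and the background. Some genes of the lists are not reported here by name.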

Additional observations from a re-analysis of the deposited data

How the results depend on the processing

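No value per library is in the list, so no library could be left out, and depth limits per library are unknown. No paired analysis was possible because the list pools the replicates. Class medians were the same with promoter peaks only and with score minimums at the median or the top 25%. Merging over 1000 bp gave median scores of 842.6 (GABA), 550.3 (glutamate) and 649.2 (cholinergic) and median widths of 21871, 20220, 12590 and 13957.5 bp (GABA, glycine, glutamate, cholinergic). Over 5000 bp the scores were 894.0, 553.8 and 708.7 and the widths 31572, 25974, 15488 and 19486 bp. Summing all peaks of a gene gave scores of 1768.2, 1039.3, 556.9 and 614.7 and widths of 38648, 21633, 9803 and 12400 bp. The class medians by score stayed in the order glycine, GABA, cholinergic, glutamate, except that GABA led in the sums. GABA led by width in both mergings and the sums. The sums include peaks over 20000 bp from the TSS, with scores of 989.8 at Gad2, 448.8 at Slc32a1, 90.3 at Gad1 and 66.8 at Slc6a5. Gene by gene, the Slc17a7 domain merged with Pth2 peaks scored above Gad1, Gad2 and Slc6a5 in both mergings (977.1 over 5000 bp, against 864.4, 894.0 and 972.5). Members with a promoter peak numbered 8 when overlap with the TSS itself was required (Slc17a7 fell out) and 4 when its centre had to be in the promoter-TSS class (Slc6a5, Slc17a6, Slc17a7 and Chat), against 13.8% and 18.4% of genes named. For the wider list both settings gave 9 of 57, and a reach of 5000 bp gave 33 of 57, against 61.9% of genes named. Only 44 of the 57 are named by a peak, while these backgrounds hold named genes alone. The counts out of 57 are therefore not read as above or below them. By construction each of these settings counts other peaks or bases.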

Other observations

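Gad2 was named by 100 peaks, far more than any other member, and most lay away from the gene. Of these, 48 were centred over 380000 bp upstream of its TSS, in a stretch the authors' annotation calls intergenic, and summed to a score of 723.8, close to the 733.5 of the peak at the gene itself. The largest measured 5796 bp with a score of 201.5, centred at -391509 bp from the TSS. These peaks carry the name of Gad2 because its TSS was the nearest in the annotation used, so the summed score of Gad2 (1883.8) is not a measure of the gene.

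The deposited annotation places the peaks upstream of Chat in an intron of Grid1, a glutamate receptor gene. In GRCr8 Grid1 lies elsewhere on the chromosome and does not overlap Chat.

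For each member, the gene whose highest peak was nearest in log2 width and log2 score was found among all genes named, in this single profile. These were Skap2 for Gad1, Tbx15 for Gad2, En2 for Slc32a1 (15096 bp, 950.9), C1ql2 for Slc6a5 (18842 bp, 927.0) and Irx6 for Slc17a6. They were Vgll2 for Slc17a7, Rspo2 for Slc17a8 (1762 bp, 58.8), Cyp11a1 for Chat (3316 bp, 115.3) and Ppic for Slc10a4.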
